A study of Ictidomys tridecemlineatus with 15 samples.

Results

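The neuropeptide genes of the hypothalamic nuclei around the supraoptic nucleus were followed here: Sst, Pomc, Npy, Agrp, Hcrt, Pmch, Vip, Grp, Nts and Ghrh. They were taken by gene symbol, and all 10 were among the 16993 genes of the deposited table. Thirteen-lined ground squirrels, with no genetic change or drug named, were sampled in 3 states with 5 libraries each: torpor (the cold, inactive phase of hibernation), interbout arousal (IBA, the short warm interval between bouts of torpor in the same season) and active (not hibernating). RNA was taken from supraoptic nuclei cut by hand out of thick coronal brain slices, so a library can hold differing amounts of the tissue next to the nucleus. The submitters call the libraries biological replicates. The labels do not say whether a library pools animals, nor their age, so the p-values measure the spread between libraries.

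A neuropeptide is cut from a longer precursor protein, packed into dense-core vesicles and released to act on receptors of nearby or distant cells. The supraoptic nucleus itself is built of magnocellular neurons that make vasopressin and oxytocin. The peptides described here are made mainly by other groups of hypothalamic neurons. Somatostatin (Sst) neurons lie along the third ventricle and are also scattered widely through the forebrain. Pomc, Npy, Agrp and Ghrh neurons are best known from the arcuate nucleus, where Pomc restrains feeding, Npy and Agrp drive it, and Ghrh stimulates growth hormone release. Orexin (Hcrt) and melanin-concentrating hormone (Pmch) are made by neurons of the lateral hypothalamus that act on wakefulness, sleep and feeding, and neurotensin (Nts) is made there and elsewhere. Vip and Grp are peptides of the suprachiasmatic nucleus, the circadian clock, which lies just above the optic chiasm.

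Levels are normalised CPM, that is, reads scaled to library size and then by a factor per library. The libraries held 21570371 to 26113341 counted reads in torpor, 19320883 to 23621875 in IBA and 15844561 to 21216931 in active, so 1 read was worth 0.0409 to 0.0626 normalised CPM. The values are not divided by transcript length, and levels are therefore compared between libraries and not between genes. In bulk tissue, fewer cells of a type and less RNA per cell cannot be told apart. Of 15 genes expressed by magnocellular neurons or by their lineage, none was at 0 in every library. Over the 15 libraries Pdyn lay between 203 and 674 and Otp between 89.5 and 193. Sim1 lay between 42.4 and 92.7, Pou3f2 between 37.2 and 99.0 and Gal between 0 and 1.57. Pdyn, Otp, Sim1 and Pou3f2 are also in the lists of neighbouring nuclei used below. These levels therefore do not tell the supraoptic nucleus from its neighbours. The vasopressin and oxytocin genes themselves are not analysed here. Fold changes are differences of mean log2(value + 1), which understate changes of genes near 1 normalised CPM, with adjusted p-values from limma over the 15501 genes that had at least 1 normalised CPM in at least 5 libraries.

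Of the 10 genes, 3 rose in torpor relative to active (Sst, Pomc and Ghrh), none fell, 6 did not pass the test and Agrp was removed by the filter. Among all genes tested in this comparison, 19.5% passed an adjusted p of 0.05 in either direction and 9.73% rose (1508 rose and 1510 fell; 1051 and 2274 when scaled to library size alone, where the same 3 genes were called). edgeR called the same 3 of the 10 (18.3% of all genes) and DESeq2 called 4, Pmch being the addition (22.4%). With the level of oligodendrocyte markers as a covariate, none of the 10 passed in limma. The median log2 fold change was 0.73 over the 9 genes tested here, against 0.0075 over all genes tested. In IBA relative to active no gene of the 10 passed in limma, edgeR or DESeq2. Of all genes 1.3% passed in limma, 1.11% in edgeR and 5.62% in DESeq2. An unadjusted limma p under 0.05 was reached by 0 of the 9 genes tested here and by 3046 of all 15501. In torpor relative to IBA none passed in limma or edgeR, while DESeq2 called 2, Sst and Pomc. Of all genes 2.94% passed in limma, 2.84% in edgeR and 6.23% in DESeq2. An unadjusted limma p under 0.05 was reached by 5 of the 9 genes tested here and by 3012 of all 15501. The comparisons with active share the active libraries, and those with torpor share the torpor libraries, so they are not independent of each other.

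**Figure D1:**
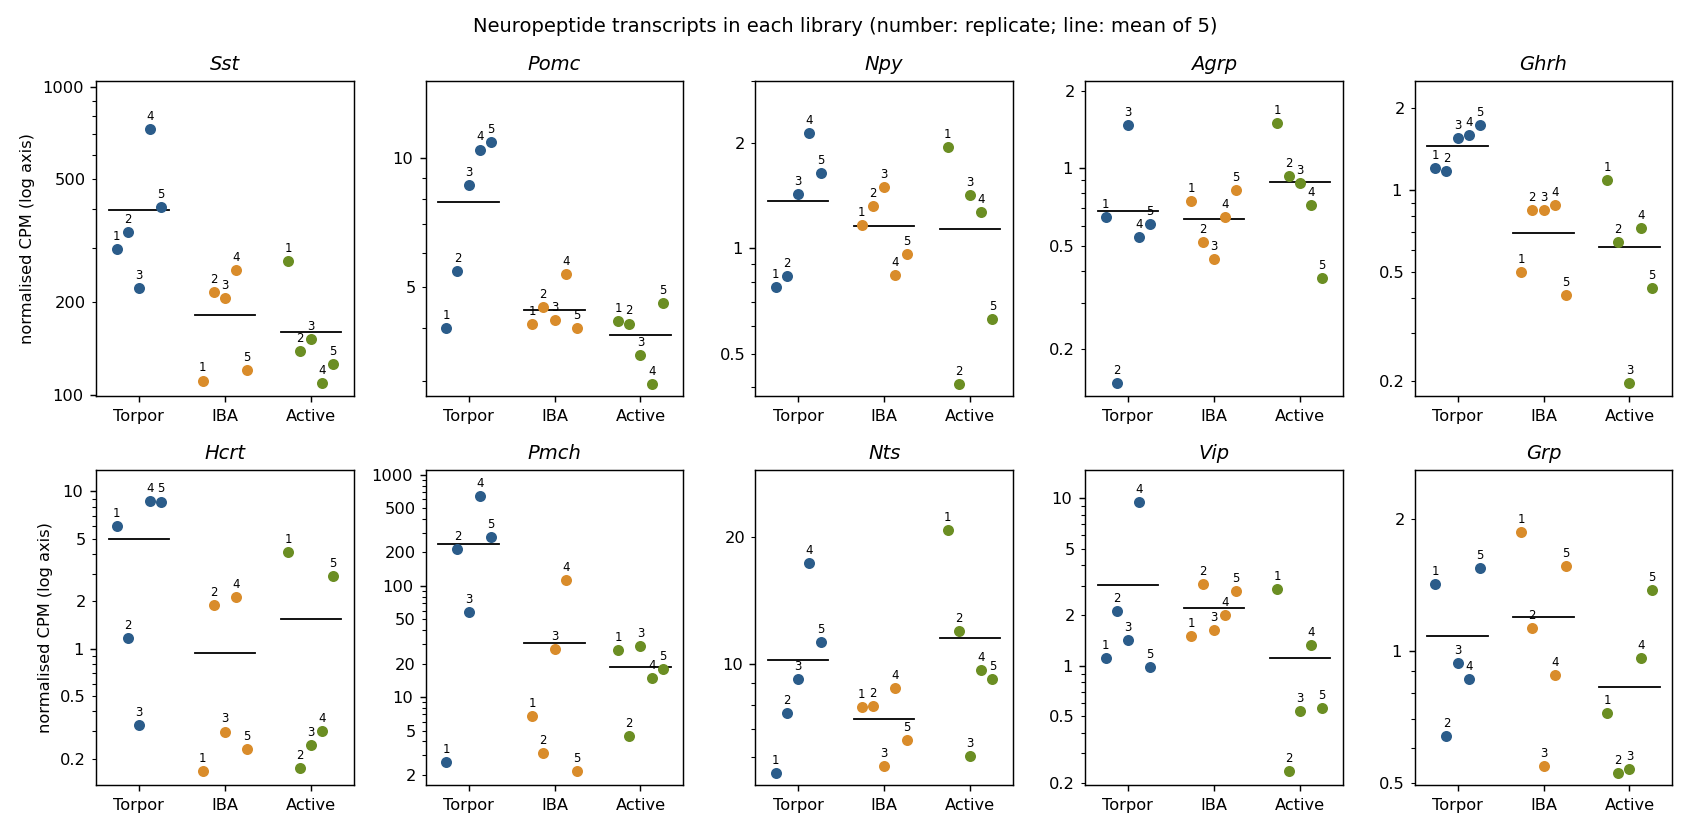
Normalised CPM (log axis) of the 10 neuropeptide transcripts in torpor, IBA and active, with 1 point per library, its replicate number beside it and a line at the mean of 5. Torpor library 4 is the highest torpor library for 6 of the 10 genes, and Pmch spans 2.16 to 642 over all libraries.

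Somatostatin inhibits the release of growth hormone and of many other hormones and transmitters. Sst stood at 296, 337, 222, 729 and 406 normalised CPM in torpor libraries 1 to 5, at 111, 215.0, 206, 253 and 120.4 in IBA libraries 1 to 5, and at 271, 139, 151, 109 and 126 in active libraries 1 to 5. The states overlapped: torpor library 3 lay below active library 1, and the other 4 torpor libraries lay above every active library. Mean levels were 398 ± 197 in torpor, 181 ± 62.4 in IBA and 159 ± 64.7 in active (SD, n = 5 each). Sst rose in torpor relative to active, with a log2 fold change of 1.27 ± 0.33 (SE) and a limma adjusted p of 0.0150. The corresponding values were 1.09 ± 0.33 in torpor relative to IBA (limma adjusted p = 0.0841) and 0.19 ± 0.33 in IBA relative to active (limma adjusted p = 0.791). The order of the levels was thus torpor, IBA, active, with IBA and active not separated beyond their spread. The Sst reads numbered 1801 to 16083 per library, so counting error was small: in torpor it amounted to 1.07% of the mean, against a coefficient of variation between libraries of 49.4%.

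Pomc, the precursor of α-MSH and β-endorphin, also rose in torpor. It stood at 4.01, 5.45, 8.63, 10.5 and 10.9 normalised CPM in torpor libraries 1 to 5, at 4.08, 4.47, 4.18, 5.35 and 3.99 in IBA, and at 4.16, 4.10, 3.47, 2.96 and 4.57 in active. Torpor libraries 3, 4 and 5 were high, torpor library 2 lay just above the IBA and active libraries, and torpor library 1 lay among them. Its log2 fold change was 0.81 ± 0.21 in torpor relative to active (limma adjusted p = 0.0131), 0.64 ± 0.21 in torpor relative to IBA (0.0984) and 0.16 ± 0.21 in IBA relative to active (0.705). The coefficient of variation was 38.7% in torpor, 12.5% in IBA and 16.5% in active, where counting error alone gives 7.54%, 10.2% and 11.9%. The reads numbered 93 to 233 per library in torpor, 84 to 115 in IBA and 49 to 92 in active. A gene without a symbol overlaps Pomc in the reference name table. No source used here gives the strand setting of the counting, so reads of that gene may be included.

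Ghrh was the only gene of the 10 whose torpor libraries did not overlap with those of another state. It stood at 1.21, 1.18, 1.55, 1.59 and 1.73 normalised CPM in torpor libraries 1 to 5, at 0.499, 0.848, 0.845, 0.883 and 0.413 in IBA, and at 1.08, 0.644, 0.195, 0.724 and 0.438 in active. All 5 torpor libraries lay above every IBA and every active library, a pattern shown upward by 5.41% of all genes tested for torpor over active and by 1.9% for torpor over IBA. Ghrh rose in torpor relative to active by 0.62 ± 0.17 (limma adjusted p = 0.0155), and its values were 0.53 ± 0.17 in torpor relative to IBA (0.0844) and 0.08 ± 0.17 in IBA relative to active (0.820). These levels rest on 24 to 38 reads per library in torpor, 9 to 19 in IBA and 4 to 24 in active. The coefficient of variation was 17.0% in torpor, 31.96% in IBA and 53.8% in active, where counting error alone gives 17.6%, 25.8% and 29.4%. Ghrh passed the filter of 1 normalised CPM in 5 libraries through its 5 torpor libraries and 1 active library, so it was tested because it was high in torpor. With no filter on any gene its limma adjusted p was 0.0117.

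The other arcuate peptides stayed low in every state. Npy lay between 0.775 and 2.13 normalised CPM in torpor, 0.837 and 1.49 in IBA, and 0.410 and 1.94 in active, with a log2 fold change of 0.16 ± 0.21 in torpor relative to active (limma adjusted p = 0.621). The 3 ranges overlapped widely. Agrp, which encodes an antagonist of melanocortin receptors, lay between 0.147 and 1.47 in torpor, 0.448 and 0.826 in IBA, and 0.376 and 1.49 in active, on 3 to 36 reads per library. Only 2 libraries reached 1 normalised CPM, so the filter removed Agrp. With no filter, its log2 fold change in torpor relative to active was −0.18 ± 0.19 (limma adjusted p = 0.543), and edgeR and DESeq2 gave −0.37 each (adjusted p = 0.620 and 0.654). In the reference name table the Agrp gene overlaps Ripor1 and Ctcf, and its few reads may in part be theirs.

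Pmch, the precursor of melanin-concentrating hormone, had the widest spread of the 10 genes, 297-fold between the lowest and the highest library. It stood at 2.63, 215.2, 58.5, 642 and 275 normalised CPM in torpor libraries 1 to 5, at 6.74, 3.16, 27.3, 113 and 2.16 in IBA, and at 26.5, 4.45, 28.9, 14.7 and 17.7 in active. Torpor libraries 2, 3, 4 and 5 lay above every active library, while torpor library 1 lay below every active library. The torpor mean was 12.9 times the active mean, but the log2 fold change of 2.52 had a standard error of 1.34 and did not pass (limma adjusted p = 0.208). The difference between torpor and IBA was 2.92 ± 1.34 (limma adjusted p = 0.254) and that between IBA and active −0.40 ± 1.34 (0.904). In IBA the mean of 30.5 ± 47.4 rested on library 4, and the median was 6.74. Its within-state standard deviation on the log2 scale, 2.17, was the 3rd largest of the 15501 genes tested, whose median was 0.242.

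Whether Pmch passed depended on the test and on 1 library. DESeq2 on the recovered reads gave a log2 fold change of 3.69 ± 1.10 and an adjusted p of 0.00684 in torpor relative to active, while edgeR gave 3.68 and 0.0700. Without torpor library 1, the limma log2 fold change was 3.71 (adjusted p = 0.0266) relative to active and 4.11 (adjusted p = 0.0436) relative to IBA. In the authors' deposited table, the joint test of the 3 states gave Pmch a false discovery rate of 0.0319. In the same table Sst had 0.0122, Pomc 0.0154 and Ghrh 0.0456, and the other 6 genes lay between 0.136 and 0.848; 14.6% of all genes had a false discovery rate under 0.05.

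Hcrt, the precursor of the orexins, had both high and low libraries within every state. It stood at 6.03, 1.18, 0.327, 8.66 and 8.62 normalised CPM in torpor libraries 1 to 5, at 0.166, 1.88, 0.298, 2.14 and 0.230 in IBA, and at 4.11, 0.176, 0.244, 0.302 and 2.88 in active. Torpor libraries 1, 4 and 5 lay above every IBA and active library, and the remaining libraries overlapped. The log2 fold change was 1.13 ± 0.61 in torpor relative to active (limma adjusted p = 0.209), 1.36 ± 0.61 in torpor relative to IBA (0.235) and −0.23 ± 0.61 in IBA relative to active (0.871). The 7 libraries under 0.4 normalised CPM held 3 to 8 Hcrt reads each, and the highest held 191. The within-state standard deviation of Hcrt on the log2 scale, 1.05, ranked 45th of the 15501 genes. As for Pomc, a gene without a symbol overlaps Hcrt in the reference name table, and its reads may be included.

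Although Hcrt and Pmch neurons lie side by side in the lateral hypothalamus, their transcripts were not high in the same libraries throughout. Torpor libraries 4 and 5 and IBA library 4 were high for both. Torpor library 1 had 6.03 for Hcrt and the lowest torpor level of Pmch, 2.63, whereas torpor library 2 had 1.18 for Hcrt and 215.2 for Pmch. Over the deviations of the 15 libraries from their state means, Pearson r was 0.22 and Spearman rho 0.34 between Hcrt and Pmch, given as a description of libraries that also share their depth and scaling. Neurotensin lowers body temperature when given into the rodent brain. Nts stood at 5.51, 7.66, 9.20, 17.4 and 11.3 normalised CPM in torpor libraries 1 to 5, at 7.91, 7.96, 5.72, 8.79 and 6.61 in IBA, and at 20.8, 11.9, 6.06, 9.66 and 9.20 in active. The states overlapped, and the Nts log2 fold change was −0.15 ± 0.27 in torpor relative to active and −0.49 ± 0.27 in IBA relative to active (limma adjusted p = 0.743 and 0.340).

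**Figure D2:**
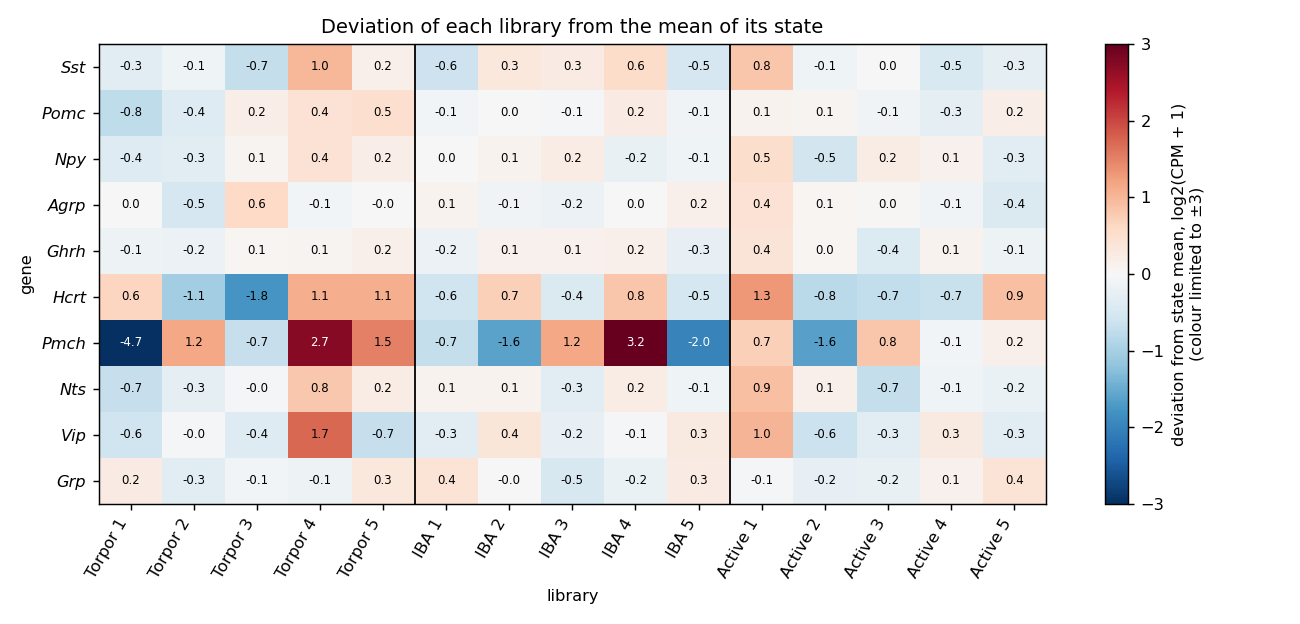
Deviation of each library from the mean of its own state, in log2(normalised CPM + 1), for the 10 genes (rows) and the 15 libraries (columns); red is above and blue below the state mean, and the number is the deviation. Pmch and Hcrt deviate most, and torpor 4, torpor 5, IBA 2, IBA 4 and active 1 are above the state mean for most genes.

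Vip, a peptide that couples the cells of the circadian clock, stood at 1.12, 2.11, 1.43, 9.47 and 0.983 normalised CPM in torpor libraries 1 to 5, at 1.498, 3.06, 1.64, 2.00 and 2.80 in IBA, and at 2.89, 0.234, 0.537, 1.33 and 0.563 in active. Torpor library 4 stood far above all other libraries, and active library 1 above the other active ones. The log2 fold change was 0.73 ± 0.40 in torpor relative to active, 0.70 ± 0.40 in IBA relative to active and 0.03 ± 0.40 in torpor relative to IBA (limma adjusted p = 0.216, 0.348 and 0.983). Grp, a bombesin-like peptide of the same nucleus, lay between 0.639 and 1.55 in torpor, 0.547 and 1.87 in IBA, and 0.527 and 1.38 in active, on 9 to 45 reads, and its largest log2 fold change was 0.25 ± 0.20 (IBA relative to active, limma adjusted p = 0.494).

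Within each state, 1 library was the highest for more of the 10 genes than any other library. Torpor library 4 was the highest torpor library for 6 of the 10 genes (Sst, Npy, Hcrt, Pmch, Nts and Vip), IBA library 4 the highest IBA library for 6 (Sst, Pomc, Ghrh, Hcrt, Pmch and Nts), and active library 1 the highest active library for 7 (Sst, Npy, Agrp, Ghrh, Hcrt, Nts and Vip). Torpor library 5 was the highest torpor library for 3 (Pomc, Ghrh and Grp). Torpor library 4 and active library 1 were the lowest of their state for none, and IBA library 4 for 1, Npy. Active library 2 was the lowest active library for 5. Sst, Hcrt and Nts were at their highest within each state in torpor library 4, IBA library 4 and active library 1. This is a count over genes of the same libraries, given as a description without a test.

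The same 3 libraries had the highest mean level of 13 telencephalic markers (genes of cortex, striatum and basal forebrain such as Drd1) within their states: 2.05 in torpor library 4 on the log2 scale, against 1.73 to 2.05 in the other torpor libraries, 2.16 in IBA library 4, against 1.84 to 2.16, and 2.28 in active library 1, against 1.70 to 1.82. In torpor and IBA the lead over the next library was under 0.01. The lead was not confined to these markers: torpor library 4 was also the highest torpor library in the mean log2 level of magnocellular (5.69), neuron (8.01), tanycyte and ependymal (2.65), endothelial and mural (4.78) and microglial markers (4.84), IBA library 4 the highest IBA library for microglial markers (4.75), and active library 1 the highest active library for magnocellular markers (5.59). Summed, these markers amounted to 40.03 to 50.5 normalised CPM in torpor, 42.05 to 58.2 in IBA and 39.2 to 64.1 in active. With their mean level as a covariate, Sst, Pomc and Ghrh still passed in torpor relative to active (limma adjusted p = 0.00375, 0.0159 and 0.0133). The same covariate gave Sst a log2 fold change of 1.34 ± 0.24 and Ghrh one of 0.63 ± 0.16 in torpor relative to IBA, and both passed (limma adjusted p = 0.0125 and 0.0419). No IBA library reached 1 normalised CPM for Ghrh, which was tested because it was high in torpor. Without the 3 libraries, a setting chosen after seeing the data, the log2 fold change in torpor relative to active was 1.24 ± 0.23 for Sst (limma adjusted p = 0.00630) and 0.72 ± 0.24 for Pomc (0.0625), and Ghrh no longer passed the filter on low values.

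Markers of mature oligodendrocytes, the myelin-forming cells that are dense in the nearby optic tract, were also higher in torpor. Of 14 such markers 13 were measured and none was at 0 in every library. They summed to 4400 to 14805 normalised CPM in torpor, 3745 to 9645 in IBA and 3042 to 5456 in active. Of the 13, 9 rose in torpor relative to active, none fell, and their median log2 fold change was 1.20. Of all genes tested, 19.5% passed in torpor relative to active in either direction and 9.73% rose, and 2.94% passed in torpor relative to IBA. Markers of other cells are to be read against these shares. Of 13 endothelial and mural markers 7 fell and none rose in torpor relative to active (median −0.39), and 4 fell relative to IBA; they summed to 400.5 to 657 normalised CPM in torpor, 590 to 843 in IBA and 583 to 780 in active. Of 9 astrocyte markers 1 fell (Gfap, median −0.20), of 9 microglial markers 2 rose (P2ry12 and C1qa, median 0.25), of 4 tanycyte and ependymal markers 1 fell (Vim, median 0.17), and of 15 magnocellular genes 3 fell (Pou3f2, Caprin2 and Nfat5, median −0.06). None of these lists had a measured marker at 0 in every library. The astrocyte, microglial, tanycyte and magnocellular counts, of few genes each, lie near the 19.5% of all genes. They are not read as changes of those cells. The part of vessel, astrocyte, microglial and tanycyte markers in the levels of the peptides was not tested. Oligodendrocyte markers had a mean log2 level of 7.89, 7.31, 7.01, 8.11 and 8.36 in torpor libraries 1 to 5, 6.82, 7.80, 7.13, 7.64 and 7.04 in IBA, and 6.66, 6.46, 6.68, 6.37 and 7.15 in active. The 3 torpor libraries with the highest level (1, 4 and 5) were those with high Hcrt, and so were the 2 highest IBA libraries (2 and 4). In active, Hcrt was highest in library 1, at a marker level of 6.66, and next in library 5, at 7.15, the highest active level.

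With the oligodendrocyte level as a covariate, no gene of the 10 passed in torpor relative to active. The log2 fold change was then 0.46 ± 0.40 for Sst, 0.47 ± 0.30 for Pomc and 0.50 ± 0.25 for Ghrh (limma adjusted p = 0.525, 0.361 and 0.243). For Hcrt the sign turned, to −1.11 ± 0.44 (limma adjusted p = 0.140). Of all genes 821 passed with this covariate, against 3018 without it. The level differed between the states, so a change with state and one with the oligodendrocyte share of the tissue cannot be told apart in this fit. Without torpor libraries 4 and 5, which hold the highest marker levels, the values were 0.89 ± 0.31 for Sst and 0.49 ± 0.20 for Pomc (limma adjusted p = 0.0742 and 0.111), and Ghrh no longer passed the filter. With any single library left out, all 3 still passed in torpor relative to active, with limma adjusted p of at most 0.0400 for Sst, 0.0386 for Pomc and 0.0414 for Ghrh.

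**Figure D3:**
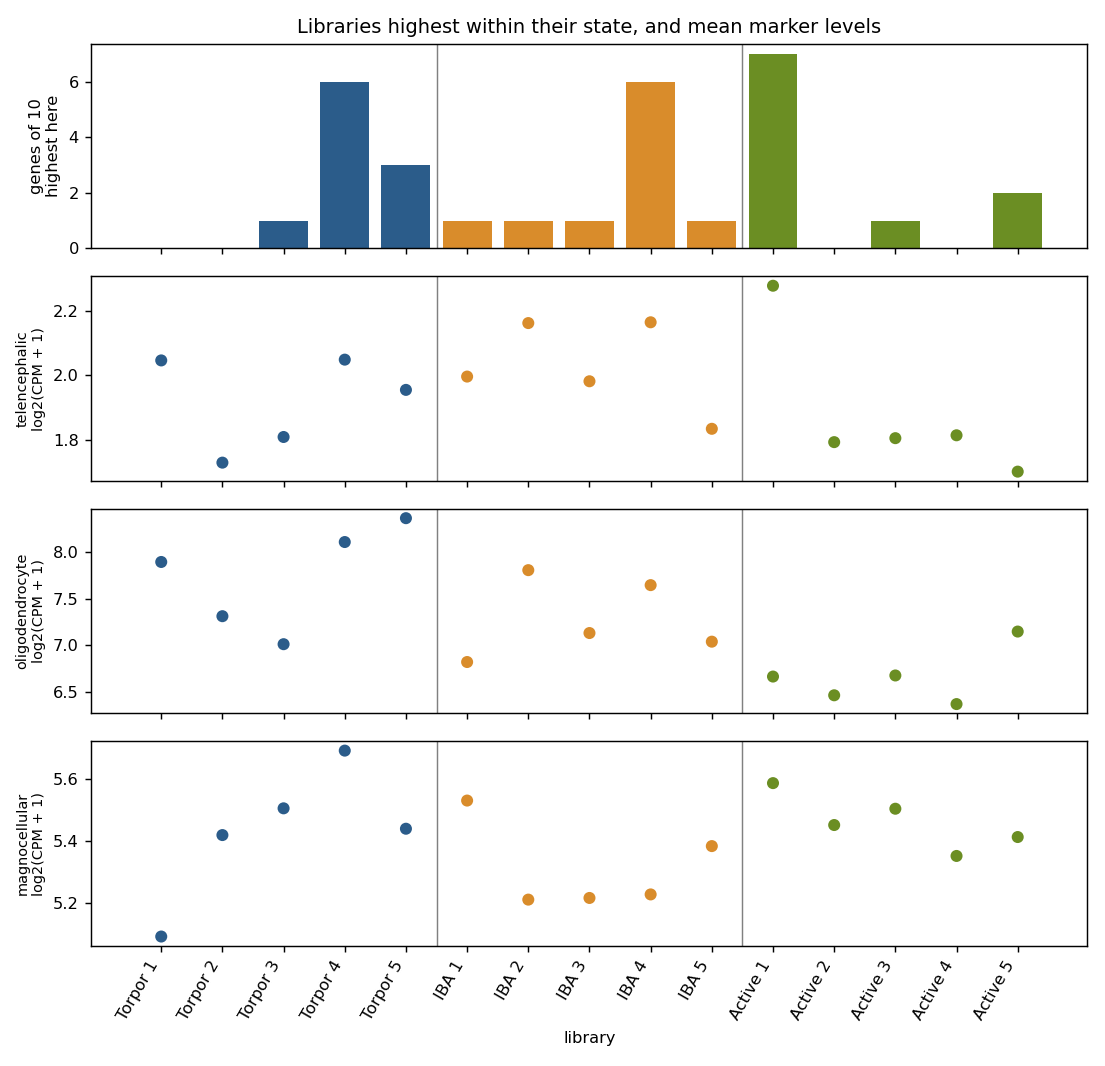
For each of the 15 libraries, the top panel gives for how many of the 10 neuropeptide genes it was the highest of its state, and the lower panels give the mean log2(normalised CPM + 1) of telencephalic, oligodendrocyte and magnocellular markers. Torpor 4, IBA 4 and active 1 lead in the top panel with 6, 6 and 7 genes, and torpor 1, 4 and 5 carry the highest oligodendrocyte levels, up to 8.36.

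Other genes of the same nuclei are given by list, to be read against the 19.5% of all genes that passed in torpor relative to active in either direction and the 9.73% that rose. Of 12 other arcuate genes tested, 1 rose and 1 fell in torpor relative to active: Th, tyrosine hydroxylase of dopamine synthesis, stood at 5.77 ± 3.27 in torpor, 3.04 ± 1.12 in IBA and 1.76 ± 0.669 in active and rose by 1.20 ± 0.29 (limma adjusted p = 0.00867), and Esr1, an estrogen receptor, fell by 0.56 ± 0.19 (0.0478). Of 5 other lateral hypothalamic genes tested, 2 rose in limma, while edgeR called 1 of the list and DESeq2 2. Nptx2, a synaptic pentraxin expressed in orexin neurons, rose by 0.99 ± 0.24 (limma adjusted p = 0.00777). Ebf2, a transcription factor of those neurons, rose by 0.69 ± 0.22 (0.0376) but reached only 0.818 to 2.40 normalised CPM in torpor. Only torpor libraries 2 to 5, IBA libraries 4 and 5 and active library 3 reached 1 normalised CPM for Ebf2. Like Ghrh, it was therefore tested because it was high in torpor. Pdyn of the same list did not pass (0.30 ± 0.29, limma adjusted p = 0.504), nor did Hcrt itself. Lhx9, also listed, stood at 0.865 ± 0.420 in torpor and 0.755 ± 0.215 in active and was not tested. Of 12 suprachiasmatic genes tested, 2 rose and 1 fell. Calb2, calretinin, rose by 0.90 ± 0.27 and Cck by 0.99 ± 0.27, and Zfhx3, a transcription factor of that nucleus, fell by 0.44 ± 0.15 (limma adjusted p = 0.0288, 0.0168 and 0.0417). Of 9 periventricular and paraventricular genes none rose and 1 fell, Pou3f2, by 0.77 ± 0.14 (limma adjusted p = 0.00125). Medians over these 4 lists were 0.07, 0.69, 0.32 and 0.12, against 0.0075 over all genes tested.

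Because Sst also marks inhibitory interneurons, 14 genes used as markers of such neurons (Sst and Npy among them) were set beside it. Calb2 of this list is also in the suprachiasmatic list above. In bulk tissue the cells that hold these transcripts are not known. In torpor relative to active 5 of the 14 genes rose, Sst among them, and 1 fell, against 9.73% of all genes that rose. The median log2 fold change was 0.29. Because Sst enters both the count and the median, they are not independent of the Sst result. Calb1, the calcium-binding protein calbindin, stood at 434 ± 67.5 in torpor, 374 ± 27.6 in IBA and 259 ± 20.02 in active, and rose by 0.73 ± 0.10 in torpor and by 0.53 ± 0.10 in IBA (limma adjusted p = 2.58e-04 and 0.0208). Tac1, the substance P precursor, rose by 1.08 ± 0.29 in torpor (limma adjusted p = 0.0166), and Reln, a secreted glycoprotein, fell by 0.50 ± 0.14 (0.0185). Of 13 general neuron markers 2 rose and 1 fell in torpor relative to active (median 0.16), near the 19.5% of all genes that passed in either direction.

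**Figure D4:**
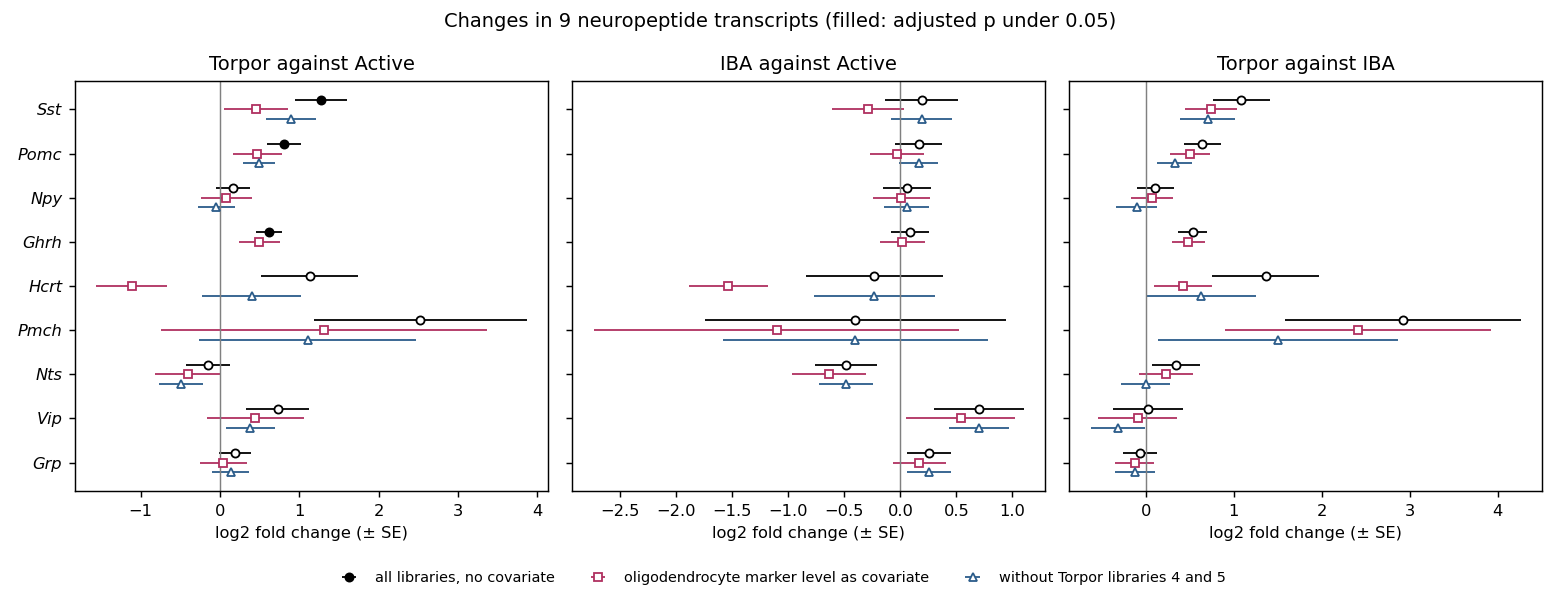
Log2 fold changes with standard errors of the 9 genes tested, in torpor against active, IBA against active and torpor against IBA; circles use all libraries, squares add the oligodendrocyte marker level as a covariate and triangles leave out torpor libraries 4 and 5. Sst, Pomc and Ghrh are the filled points, at 1.27, 0.81 and 0.62 in torpor against active with all libraries.

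Receptors for these peptides were tested in the same fits. Of 26 receptor genes listed, 20 were measured and 18 tested. In torpor relative to active none passed in limma, edgeR called 0 and DESeq2 1. Of all genes limma called 19.5%, edgeR 18.3% and DESeq2 22.4%. An unadjusted limma p under 0.05 was reached by 2 of the 18 and by 5242 of all 15501 genes. In torpor relative to IBA none passed in limma either, with 0 called by edgeR and 1 by DESeq2. Of all genes limma called 2.94%, edgeR 2.84% and DESeq2 6.23%. An unadjusted limma p under 0.05 was reached by 1 of the 18 and by 3012 of all 15501 genes. In IBA relative to active 1 of the 18 passed, against 1.3% of all genes. Grpr, the receptor for gastrin-releasing peptide, stood at 106, 45.7, 67.2, 47.4 and 82.2 normalised CPM in IBA libraries 1 to 5 and at 184, 134, 139, 118 and 117 in active libraries 1 to 5, so that every IBA library lay below every active one, as for 3.44% of all genes tested. It fell by 1.03 ± 0.23 in IBA (limma adjusted p = 0.0402) but was not called by edgeR (0 of the 18). In torpor it stood at 93.9 ± 26.2 (−0.58 ± 0.23 relative to active, limma adjusted p = 0.0889).

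Of 10 genes of precursor processing, 9 were tested, and 2 rose and 1 fell in torpor relative to active, where 19.5% of all genes were called. Pcsk1n (proSAAS), which inhibits the convertase Pcsk1, rose by 1.65 ± 0.38 (limma adjusted p = 0.00891), and Qpct, which forms the N-terminal pyroglutamate of peptides such as neurotensin and orexin-A, rose by 0.36 ± 0.12 (0.0377). Prcp, a peptidase that inactivates α-MSH, stood at 20.3 ± 2.04 in torpor and 35.6 ± 6.998 in active and fell by 0.77 ± 0.12 (limma adjusted p = 6.08e-04). The other 6 did not pass, and none of the 9 passed in limma or edgeR in IBA relative to active. There, 8 of the 9 had an unadjusted limma p under 0.05, as had 3046 of all 15501 genes. DESeq2 called 4, against 5.62% of all genes.

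The genes whose library-to-library pattern was most like that of a peptide gene were sought over the 15 libraries, as Pearson r of deviations from the state means among about 11447 genes. For Sst these were Ankrd13d, Hsf4 and Csmd2 (r = 0.882, 0.874 and 0.868), for Pomc Aurkaip1, Ptprs and Gdf1 (0.957, 0.927 and 0.922), for Pmch Spire2, Tsr3 and Gadd45gip1 (0.882, 0.853 and 0.851) and for Hcrt Prag1, Spata13 and Kif13b (0.922, 0.914 and 0.907). For Ghrh they were Epb41l4a, Zic5 and Cdk8 (0.936, 0.894 and 0.875) and for Nts Panx2, Acacb and Sh2d3c (0.916, 0.886 and 0.882). The gene most like Npy was Ubqln4 (0.901) and that most like Grp was Rab8a (0.774). With so many genes searched over 15 libraries, values of this size describe these libraries only, and the genes share library and depth. No gene was among the 3 most alike for more than 1 peptide.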

How the data were processed

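The submitters' processing notes name Trimmomatic 0.39 and STAR 2.7.7a, Subread 2.0.1 with featureCounts, and edgeR 3.38.4 under R 4.2.1. A genome build, an annotation and a strand setting are not stated there. The per-library values are a signal deposited by the authors as normalised CPM, each a whole multiple of 1 read, so reads were recovered (100% of values within 0.1 read of a whole number). Further columns deposited by the authors are log2 fold changes, an F score and a p-value with its false discovery rate, from a joint test of the states.

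For this text limma 3.58.1 (R 4.3.3, trend and robust settings) was run on log2(value + 1) over all 15 libraries, for genes of at least 1 in at least 5 libraries (15501). Its tests were two-sided, adjusted after Benjamini and Hochberg over all genes tested, with a threshold of 0.05. As alternatives, edgeR 4.0.16 and DESeq2 1.42.0 were run on the recovered reads, and scaling, pseudocount, filter, covariates and libraries were varied. The procedure was tested on simulated data. The genes, lists and settings were chosen with earlier results of these data known. From each list up to 4 genes with the smallest adjusted p are named. Cartpt, Kiss1, Crh, Trh, Lhx9 and the magnocellular genes given by level were chosen after their values were seen. All 10 genes were found in the reference name table, used only for names and overlaps.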

Additional observations from a re-analysis of the deposited data

Results flagged for a closer look

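Each gene was checked in each state for a library far from the other 4 in normalised CPM, and 3 of 30 sets stood out. Normally distributed values would give this in about 1 of 20 sets, and the distribution of these values was not tested. Sst in active library 1 stood at 271 normalised CPM, with the next active library at 151. Pmch in IBA library 4 stood at 113, with the next IBA library at 27.3. Vip in torpor library 4 stood at 9.47, with the next torpor library at 2.11. These 3 libraries are the ones that were highest of their state for the most of the 10 genes. Sst, Pmch and Vip are themselves in those counts, so the flags and the counts overlap.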

How the results depend on the processing

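The 3 genes called in torpor relative to active became 0 with the oligodendrocyte covariate and without torpor libraries 4 and 5, and 1 without active 1, IBA 4 and torpor 4 (Sst) and without torpor 4 and active 4 (Ghrh), the last 2 settings chosen after seeing the data. Leaving out single replicates gave 3 to 4. In torpor relative to IBA the count of 0 became 2 in DESeq2 (Sst, Pomc) and with the telencephalic covariate (Sst, Ghrh), and 0 to 2 with single replicates left out (Pomc and Pmch without torpor replicate 1). In IBA relative to active it was 0 in every alternative run. Of 665 values of 27 fold changes, 613 kept direction and call, 8 lost a call, 8 gained one and 36 changed sign; the cause was not tested.

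Over all genes, torpor relative to active gave 821 calls with the oligodendrocyte covariate, 1703 without active 1, IBA 4 and torpor 4, 2007 without torpor 4 and active 4, and 2272 to 3310 with single replicates left out. IBA relative to active gave 383 with only the 10 libraries compared, 843 in DESeq2, 19 with the oligodendrocyte and 319 with the magnocellular covariate, 361 without torpor 4 and 5, 20 without active 1, IBA 4 and torpor 4, 36 without torpor 4 and active 4, and 26 to 165 with single replicates left out. Torpor relative to IBA gave 859 when scaled to library size alone, 257 with only the 10 libraries, 1058 in DESeq2, 690 with the oligodendrocyte and 224 with the magnocellular covariate, 165 without active 1, IBA 4 and torpor 4, and 159 to 666 with single replicates left out.

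With a replicate block 2285, 37 and 155 genes were called in torpor relative to active, IBA relative to active and torpor relative to IBA, and the same 3 of the 10 genes were called. Of 15 pairs of libraries with the same number, 3 had a correlation of deviations over 0.1 (range −0.32 to 0.20). In 6 of 30 cases (each library against each of the other states) a library correlated best with its own number. These values show no pairing by number, and they cannot establish that none existed.

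Every log2 fold change that changed sign was of a gene not called. In torpor relative to active these were Npy (−0.046 without torpor 4 and 5), Hcrt (−1.11 with the oligodendrocyte covariate) and Nts (−0.35 to 0.079 with single replicates left out). In IBA relative to active, the oligodendrocyte covariate gave −0.29 for Sst and −0.031 for Pomc, and the telencephalic one −0.16 for Sst, −0.087 for Npy and −0.042 for Ghrh. Pmch was 0.72 in edgeR, 0.72 in DESeq2 and 0.53 with the magnocellular covariate. Single replicates left out gave −0.079 to 0.19 for Npy, −0.019 to 0.18 for Ghrh, −0.44 to 0.094 for Hcrt and −1.19 to 0.10 for Pmch. In torpor relative to IBA, Npy was −0.10 without torpor 4 and 5, −0.058 without active 1, IBA 4 and torpor 4, −0.015 with the magnocellular covariate, −0.0027 without torpor 4 and active 4 and −0.0027 to 0.20 with single replicates left out, Nts was −0.00063 without torpor 4 and 5, and Grp was −0.18 to 0.040 with single replicates left out. Vip was −0.064 with a pseudocount of 0.1, −0.036 scaled to library size, −0.092 with the oligodendrocyte and −0.23 with the magnocellular covariate, −0.32 without torpor 4 and 5, −0.42 without active 1, IBA 4 and torpor 4, −0.40 without torpor 4 and active 4, and −0.40 to 0.20 with single replicates left out. At 3 to 47 reads per library, depth limits Npy, Agrp, Ghrh and Grp; intervals from counts cover counting error only.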

Other observations

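Values are given for 4 other hypothalamic peptide genes, chosen after their values were seen. Cartpt and Kiss1 had torpor library 4 as the highest torpor library, and Crh and Trh had torpor library 5. All 4 are in the lists of neighbouring nuclei used above, and Cartpt is in the magnocellular list as well. Cartpt, the precursor of CART peptide, stood at 22.4, 77.0, 53.0, 150 and 57.6 normalised CPM in torpor libraries 1 to 5, with means of 22.2 ± 10.3 in IBA and 26.6 ± 11.5 in active (SD, n = 5 each). Its log2 fold change was 1.25 ± 0.45 in torpor relative to active and 1.53 ± 0.45 in torpor relative to IBA (limma adjusted p = 0.0652 and 0.0784). Kiss1, the kisspeptin precursor, stood at 5.30 in torpor library 4, at 0.187 to 1.18 in the other torpor libraries, at 0.448 to 1.18 in IBA and at 0.117 to 0.376 in active, and was not tested because too few libraries reached 1 normalised CPM. Crh, the precursor of corticotropin-releasing hormone, stood at 5.24 in torpor library 5 and 5.08 in torpor library 4, with means of 4.197 ± 1.05 in torpor, 2.45 ± 1.05 in IBA and 2.40 ± 1.38 in active (limma adjusted p = 0.0728 in torpor relative to active). Trh, the precursor of thyrotropin-releasing hormone, stood at 147 ± 31.2 in torpor, 118 ± 54.1 in IBA and 102 ± 77.2 in active, with 175 in torpor library 5 and 171 in torpor library 4, and its active libraries lay between 25.3 and 215 (limma adjusted p = 0.244).

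Differences between states accounted for 65.3% of the variance of Ghrh on the log2 scale, 56.0% for Pomc and 55.6% for Sst. The share was 30.8% for Pmch, 28.6% for Hcrt and at the median 26.6% over all genes tested. It rests on the same contrast of states that called Ghrh, Pomc and Sst, so it restates those calls. Ghrh was among the genes tested because it was high in torpor. The within-state standard deviation of Vip, 0.708, was larger than that of 98.2% of the genes tested, and that of Ghrh, 0.223, larger than that of 43.8%.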
